A study of Rattus norvegicus with 2 samples.

Results

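The dual-specificity MAP kinase phosphatases were followed through cardiac cells of neonatal rats given lipopolysaccharide (LPS) or saline. The set held 9 genes of the 25399 in the gene list, *Dusp1*, *Dusp2*, *Dusp4*, *Dusp5*, *Dusp6*, *Dusp8*, *Dusp10*, *Dusp14* and *Dusp16*. They were taken by symbol, and each matched 1 Ensembl identifier. The cells came from hearts of Sprague-Dawley rats aged 1 to 3 days, males and females pooled, with no genetic change named in the labels. They were enriched for intrinsic cardiac adrenergic (ICA) cells on a Percoll gradient, plated, and given saline (control) or 1 µg/mL LPS for 2 h before trypsin and EDTA released them for the 10X Genomics 3′ procedure. Each condition was 1 library, so there was no replicate, no test was made, and a difference between the libraries cannot be told apart from a difference in their handling.

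MAP kinases (ERK, JNK and p38) carry signals from receptors such as the LPS receptor TLR4 to transcription factors, and they are active while a threonine and a tyrosine of their activation loop are phosphorylated. Dual-specificity phosphatases remove both phosphates. Many are themselves transcribed when the kinases are active, and so act as brakes on inflammatory and growth signals. *Dusp1*, *Dusp2*, *Dusp4* and *Dusp5* code for nuclear enzymes, *Dusp6* for a cytoplasmic enzyme that prefers ERK, *Dusp8*, *Dusp10* and *Dusp16* for enzymes that prefer JNK and p38, and *Dusp14* for a small enzyme without the kinase-binding domain of the others.

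There were 11531 cells in the control library, with 152624585 unique molecular identifiers (UMIs) in all and 12479 in the median cell. For LPS the numbers were 12689, 127580475 and 9432. A cluster given by the authors was present for 11529 and 12681 of them, in 11 clusters, and 194 cell barcodes occurred in both libraries. Markers went with the names of clusters 0, 1 and 7 (Fibroblast), 4 and 5 (Endothelial) and 6 (Macrophages). Cluster 1 also held cycling markers at 475 CPM in control and 459.9 CPM in LPS cells. Cluster 3, named ICA and Cardiomyocyte, held 7 cardiomyocyte markers at 10123 and 10705 CPM and the adrenergic list at 75.2 and 82.1 CPM, with 3 and 4 of its 7 genes seen, so it is described here mainly as cardiomyocytes. Cluster 2 had no name, and held mural markers at 1697 and 1475 CPM and smooth muscle markers at 2430 and 2350 CPM. It also held fibroblast markers at 5530 and 4211 CPM. The mural list did not set it apart from cluster 3, which had 1502 and 1431 CPM of it, but 286 and 199 CPM of the smooth muscle list. Clusters 8 and 9 had no name. Cluster 8 held mesothelial markers at 504 and 529 CPM and fibroblast markers at 4799 and 3939 CPM. Cluster 9 held fibroblast markers at 17272 and 14504 CPM and cardiomyocyte markers at 1940 and 2013 CPM. A level is the UMIs of a gene summed over a cluster, divided by all UMIs of that cluster and times 1000000 (CPM), and the 95% intervals in parentheses are exact and cover counting error only.

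Cells of one cluster are not replicates, and the clusters were built from the expression of the same cells, so differences between clusters are given as a description. Scaled to the total, the median gene was lower in the LPS library in some clusters. The median LPS to control ratio of all tested genes was 0.914 in cluster 0, 0.921 in cluster 2 and 0.808 in cluster 6, against 0.941 to 0.998 in clusters 1, 3, 4, 5, 7, 8 and 9. Ratios relative to this median are given where the shift bears on a result.

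**Figure D1:**
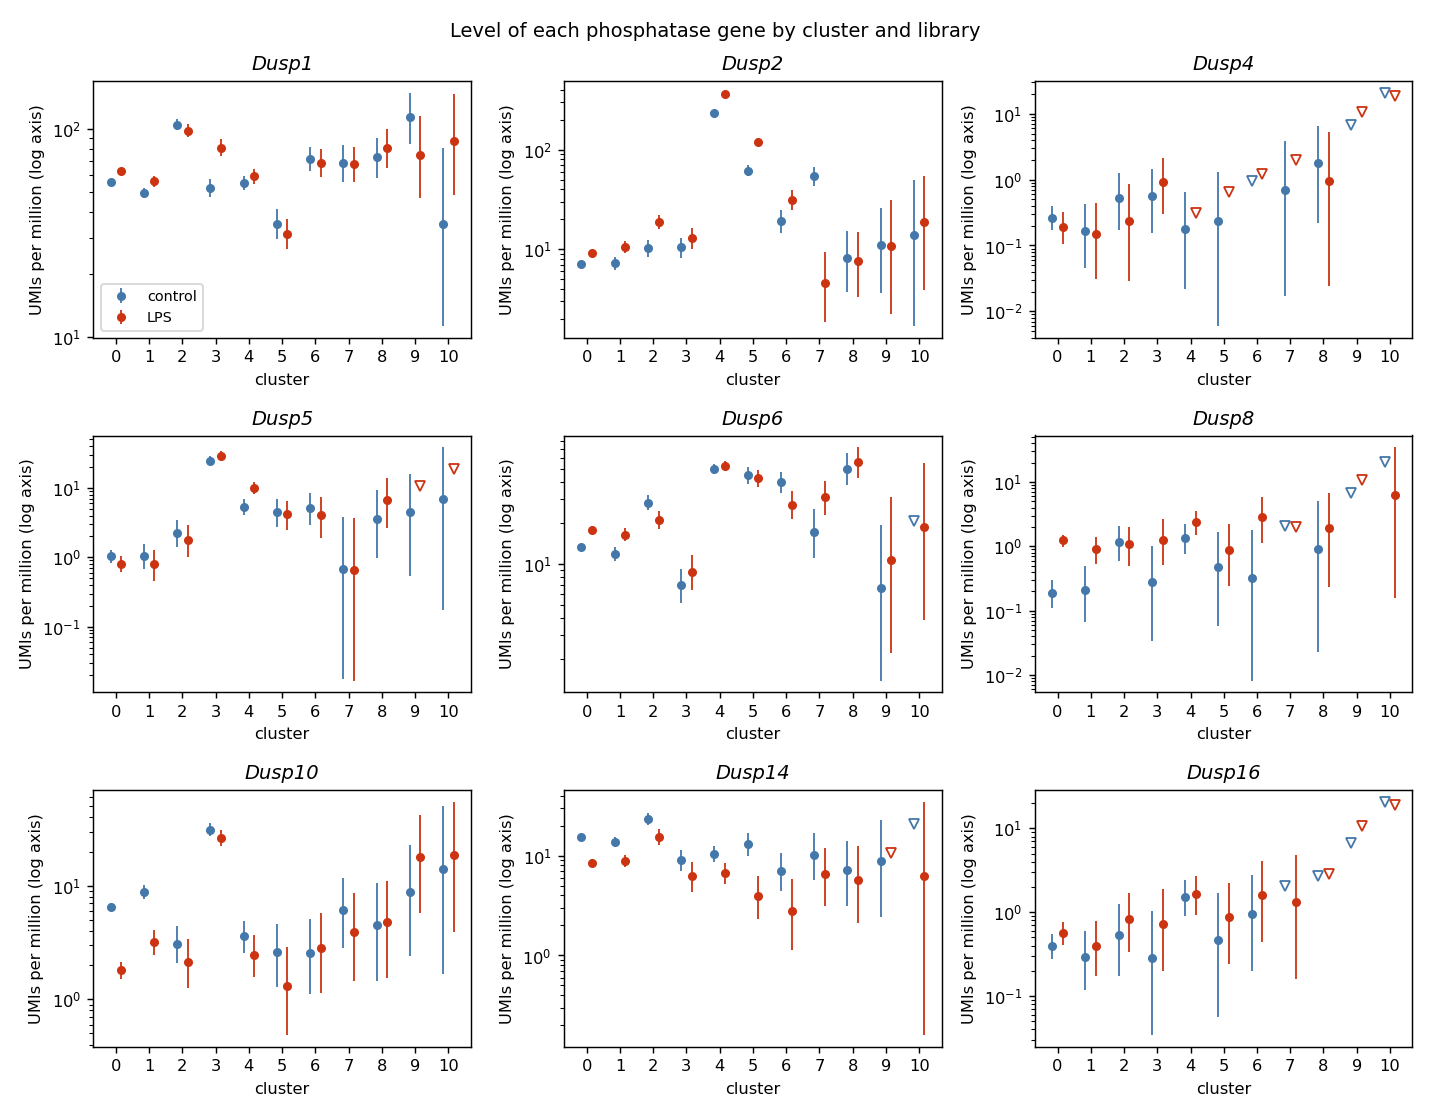
Level of each of the 9 phosphatase genes (CPM, log axis) in clusters 0 to 10 of the control library (blue) and the LPS library (red), 1 panel per gene. Points are summed UMIs scaled to the total of the cluster, bars the exact 95% Poisson interval, and open triangles mark the limit of 3 UMIs where a cluster had none. *Dusp2* stood highest in cluster 4 (237 and 363 CPM), and *Dusp5* and *Dusp10* in cluster 3 among clusters 0 to 8.

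Of the nuclear enzymes, *Dusp1* (ENSRNOG00000003977), an early gene that limits p38 and JNK activity and is a target of glucocorticoids, was present in every cluster. In the control library cluster 2, with its mural and smooth muscle markers, had the highest level among clusters 0 to 8, at 105 CPM (98.2 to 111). Levels were between 68.5 and 72.9 CPM in clusters 6, 7 and 8 and between 49.3 and 55.3 CPM in clusters 0, 1, 3 and 4, and endothelial cluster 5 was lowest with 35.1 CPM (29.7 to 41.2). The intervals overlapped among clusters 6, 7 and 8 and among clusters 0, 3 and 4, whereas those of clusters 2 and 5 met none of these. In the LPS library cluster 2 again stood highest among clusters 0 to 8, with 98.1 CPM (91.5 to 105), and cluster 5 lowest, with 31.4 CPM (26.5 to 37.0). Cluster 9 held 51 control and 21 LPS UMIs of *Dusp1*, at 113 CPM (84.4 to 149) and 75.1 CPM (46.5 to 115).

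Among clusters 0 to 8 the level of *Dusp1* differed most between the libraries in cluster 3, the ICA and cardiomyocyte cluster. Control cells had 368 UMIs, or 52.0 CPM (46.8 to 57.6), and LPS cells 445 UMIs, or 81.2 CPM (73.8 to 89.1). The LPS to control ratio was 1.56 (1.36 to 1.80), and 3.70% of the 8465 genes tested in the cluster had a higher one. Among clusters 0 to 8 of the LPS library cluster 3 stood next to cluster 2, with an interval that overlapped those of clusters 6, 7 and 8. With each cell thinned to 3000 UMIs, so that depth was equal, the share of cells with a *Dusp1* UMI was 14.4% (12.0 to 16.9) in the control library and 19.9% (17.3 to 22.6) in the LPS library, against 30.9% and 32.9% without thinning. No cluster lacked *Dusp1*, so none gave a background share. Mitochondrial genes took a median of 17.9% and 17.3% of UMIs in these cells, against 3.57% and 3.13% over all cells, and the log2 ratio was 0.63 with mitochondrial genes left out of the total and 0.61 without the cells over 20% mitochondrial, against 0.64.

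The paper named ICA cells in its single-cell data by *Dbh*, the gene of dopamine beta-hydroxylase, and *Ddc*, and stained them for tyrosine hydroxylase. In cluster 3 *Dbh* stood at 25.4 and 24.8 CPM and *Ddc* at 49.6 and 56.9 CPM, but *Th*, the tyrosine hydroxylase gene, at 0 in both libraries. Cells with a *Dbh* UMI are thus picked by 1 marker. In them, 72 UMIs of *Dusp1* were counted over 156 cells of the control library and 69 over 121 cells of the LPS library. The levels were 49.2 CPM (38.5 to 62.0) and 95.4 CPM (74.2 to 121), and their ratio was 1.94 (1.37 to 2.73). The other cells of the cluster gave 52.7 and 79.0 CPM, and a ratio of 1.5 (1.28 to 1.75). Both groups of cells were higher in the LPS library, their intervals overlapped, and the difference between the ratios was not tested. Cells with a *Dbh* UMI were a little deeper, with medians of 8200 and 5379 UMIs against 7455 and 5229.

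Among clusters 0 to 8 the other ratios were nearer 1. In cluster 0 the levels were 55.3 and 62.4 CPM (ratio 1.13, 1.08 to 1.17) and in cluster 1 they were 49.3 and 55.9 CPM (1.14, 1.05 to 1.23). Endothelial cluster 4 had 55.0 and 59.3 CPM (1.08, 0.960 to 1.21), and the macrophages of cluster 6 had 71.9 and 68.8 CPM (0.957, 0.779 to 1.17). The intervals of clusters 2, 4, 5, 6, 7, 8 and 9 all included 1. In cluster 9 the ratio was 0.663 (0.379 to 1.12), from 51 control and 21 LPS UMIs. That value passed the minimum only through the control library. Cluster 6 depended on the measure. Relative to the median gene it stood at 1.18 (0.964 to 1.45), and the thinned share of macrophages with a *Dusp1* UMI was 14.2% (10.4 to 18.9) in the control library and 20.3% (15.9 to 25.4) in the LPS library, with intervals that overlapped. Its log2 ratio was -0.06 as counted, 0.24 by the mean of the cells' own CPM and 0.38 after thinning. The promoter of *Dusp1* is shown because it was the only one of the members' windows with a cAMP response element. RefSeq places the window, from 250 bases before to 50 bases after the start of transcription, at chr10:17184603-17184902 (plus strand) of GRCr8, and the capitals mark TGACGTCA, which begins 124 bases before the start.
*Dusp1*: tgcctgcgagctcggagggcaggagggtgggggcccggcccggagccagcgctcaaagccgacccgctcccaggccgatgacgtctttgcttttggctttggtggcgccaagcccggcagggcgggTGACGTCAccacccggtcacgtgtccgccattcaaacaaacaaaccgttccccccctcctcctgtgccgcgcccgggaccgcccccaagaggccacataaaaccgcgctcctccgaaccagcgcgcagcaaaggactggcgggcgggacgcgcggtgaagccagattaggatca
This motif was found in 1.83% of the 33469 promoter windows of the same length, searched on both strands. A match describes the letters of the window and is not a measured site.

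*Dusp2* (ENSRNOG00000013862), whose nuclear enzyme is best known from activated immune cells, was highest in endothelial cells in these cultures. Cluster 4 held 2634 *Dusp2* UMIs in 723 control cells and 3534 in 823 LPS cells, which gave 237 CPM (228 to 246) and 363 CPM (351 to 375). The other endothelial cluster, cluster 5, had 61.7 CPM (54.4 to 69.6) and 120.2 CPM (110.3 to 131). The LPS library was higher in both clusters, with a ratio of 1.53 (1.46 to 1.61) in cluster 4 and 1.95 (1.68 to 2.27) in cluster 5. Higher ratios were seen for 5.21% of the 9492 genes tested in cluster 4 and for 4.49% of the 7824 in cluster 5.

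The difference was spread over many cells of cluster 4. The median cell held 2 *Dusp2* UMIs in control and 3 in LPS, the tenth of cells with the most held 35.4% and 36.02% of all, and the highest single cells held 24 and 31. Cells of cluster 4 with a *Dusp2* UMI after thinning made up 45.6% (42.0 to 49.4) in control and 56.0% (52.5 to 59.5) with LPS. Unthinned, they made up 78.4% and 80.8%, with a median depth of 12499 and 9972 UMIs. In cluster 5 the thinned shares were 14.6% (11.05 to 18.7) and 31.9% (27.5 to 36.5). The fibroblasts of cluster 0, taken as a background, gave 2.24% and 2.63% after thinning and 9.12% and 8.72% without it, with a median depth of 12968 and 9822 UMIs.

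**Figure D2:**
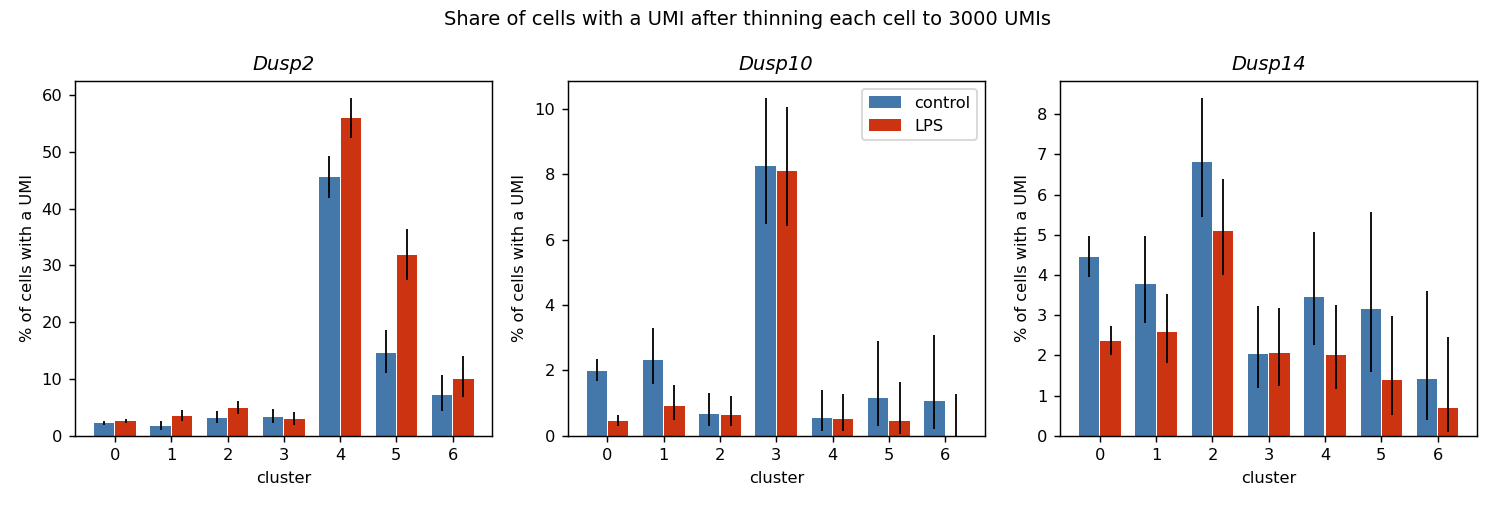
Share of cells with a UMI of *Dusp2*, *Dusp10* or *Dusp14* (percent, from 0) in clusters 0 to 6 after each cell was thinned to 3000 UMIs, control in blue and LPS in red, with exact 95% Clopper-Pearson intervals. *Dusp2* was seen in 45.6% and 56.0% of the cells of cluster 4, *Dusp10* in 8.25% and 8.10% of cluster 3, and *Dusp14* in 4.44% and 2.35% of cluster 0.

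Outside the endothelial clusters *Dusp2* stayed at a level that endothelial markers also reached there. In cluster 0 it stood at 3.03% of its cluster 4 level in control and 2.50% in LPS cells, where 6 endothelial markers together stood at 4.59% and 3.57% of theirs. In the macrophages of cluster 6 the shares were 8.14% and 8.64% for *Dusp2* and 7.79% and 11.4% for the markers. In clusters 0, 1, 2, 3, 6, 8, 9 and 10 *Dusp2* lay within the range of the 6 single markers in both libraries. That range was wide, from 4.61% to 28.9% in LPS cells of cluster 6. Whether the *Dusp2* UMIs there came from the cells themselves was not tested. The ratios in these clusters, such as 1.26 (1.13 to 1.41) in cluster 0, 1.85 (1.42 to 2.40) in cluster 2 and 1.63 (1.15 to 2.32) in cluster 6, are not read as a difference in those cells.

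The fibroblasts of cluster 7 were the exception in level and direction, with 79 *Dusp2* UMIs in control and 7 in LPS cells, or 54.1 CPM (42.8 to 67.4) and 4.60 CPM (1.85 to 9.49). The ratio was 0.0851 (0.0331 to 0.184). In control cells *Dusp2* stood at 22.9% of its cluster 4 level. The summed endothelial markers stood at 7.97% of theirs, and the highest single marker at 12.0%. A single control cell held 60 of the 79 UMIs, together with 75 UMIs of endothelial markers and 38586 UMIs in all, where the next cell held 2. Without that cell 19 UMIs remained in control, and the ratio was 0.344 (0.122 to 0.856). The endothelial markers of cluster 7 were lower with LPS too, at 143.9 and 55.26 CPM. Without the cell of each library with the most *Dusp2* they stood at 94.99 and 54.41 CPM. Whether the remaining *Dusp2* UMIs came from the fibroblasts themselves was not tested, and this ratio is not read as a difference in those cells either. The promoter of *Dusp2* is shown as that of the member with the highest level in endothelial cells. Its window at chr3:135009386-135009685 (plus strand) held no match to AP-1 (TGANTCA), a cAMP response element, a glucocorticoid response element, the NF-kappaB consensus or the CArG box consensus, and so it has no capitals.
*Dusp2*: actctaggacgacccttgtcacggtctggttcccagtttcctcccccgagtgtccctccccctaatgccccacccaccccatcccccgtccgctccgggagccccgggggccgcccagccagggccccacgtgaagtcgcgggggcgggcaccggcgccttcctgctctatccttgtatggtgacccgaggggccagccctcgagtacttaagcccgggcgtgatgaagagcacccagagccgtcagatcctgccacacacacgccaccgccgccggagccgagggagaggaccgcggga
It held 1 ETS core (GGAAG on either strand), as did 70.1% of all windows. No match says only that these letters are not in this window.

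**Figure D3:**
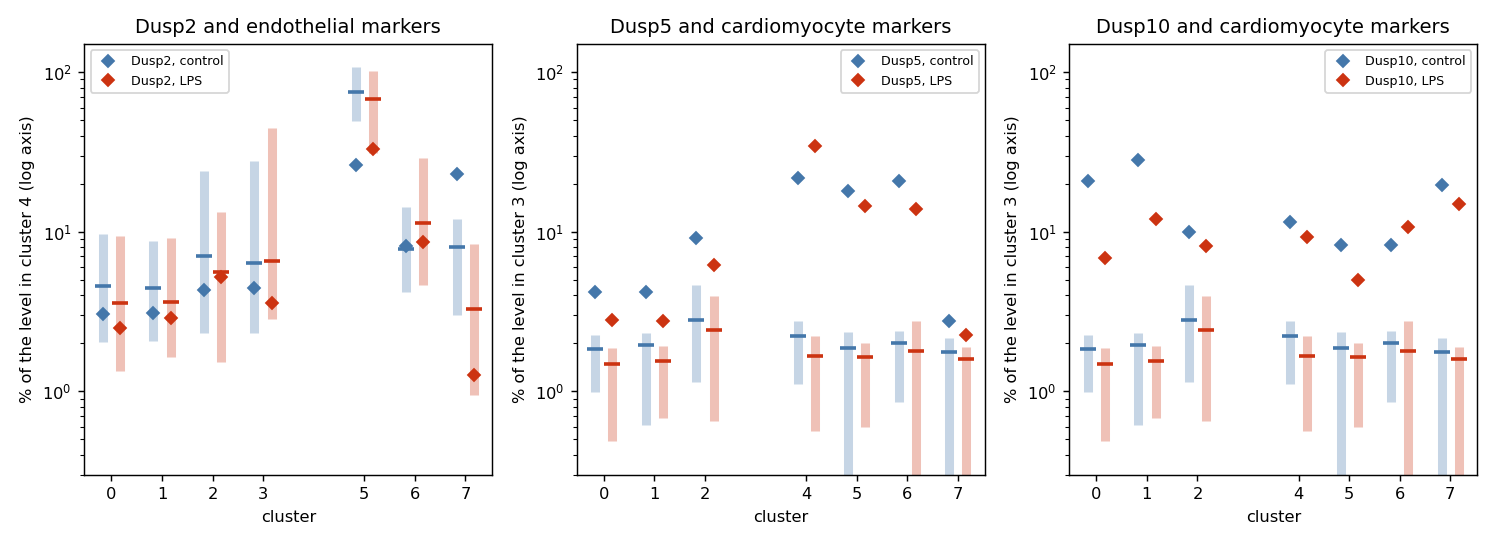
*Dusp2* as a percent of its level in cluster 4, and *Dusp5* and *Dusp10* as a percent of their level in cluster 3 (diamonds, log axis), beside the markers of the home cell type (6 endothelial or 7 cardiomyocyte markers). Horizontal lines give the summed markers, and pale bars run from the lowest to the highest single marker, down to the bottom of the axis where a marker was at 0 or under 0.3%. *Dusp2* lay within the bars in clusters 0, 1, 2, 3 and 6, whereas *Dusp10* stood at 20.7% in control cells of cluster 0, where the cardiomyocyte markers stood at 1.85%.

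*Dusp5* (ENSRNOG00000014061) codes for a nuclear phosphatase that acts on ERK alone. It was highest in cluster 3, where control cells had 175 UMIs, or 24.7 CPM (21.2 to 28.7), and LPS cells 159 UMIs, or 29.0 CPM (24.7 to 33.9). The interval of their ratio, 1.17 (0.941 to 1.46), included 1. The endothelial cells of cluster 4 had 60 UMIs in control and 97 in LPS, which were 5.39 CPM (4.12 to 6.94) and 9.96 CPM (8.08 to 12.2). This was a ratio of 1.85 (1.33 to 2.59), exceeded by 3.18% of the tested genes of the cluster. The share of cluster 4 with a *Dusp5* UMI was 2.21% (1.27 to 3.57) and 3.27% (2.14 to 4.75) after thinning, with intervals that overlapped, and 7.88% and 10.3% without it. In cluster 0 the thinned share was 0.318% and 0.271%.

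In cluster 4 the level of *Dusp5* was 21.8% and 34.3% of that in cluster 3, while cardiomyocyte markers were at 2.23% and 1.66% of theirs and the highest single marker at 2.74% and 2.24%. Fibroblasts of cluster 0 had 1.04 and 0.813 CPM (ratio 0.783, 0.557 to 1.09). Clusters 5 and 6 had 4.47 and 5.14 CPM in control and 4.17 and 4.02 CPM in LPS cells, from 10 to 19 UMIs each. The promoter of *Dusp5* is shown because it carries a pair of adjoining CArG boxes, the consensus bound by serum response factor. At least 1 CArG box was held by 1.64% of all windows, and windows with a pair were not counted. The window lies at chr1:262543524-262543823 (plus strand), and the capitals mark the boxes, which begin 82 and 72 bases before the start and do not overlap.
*Dusp5*: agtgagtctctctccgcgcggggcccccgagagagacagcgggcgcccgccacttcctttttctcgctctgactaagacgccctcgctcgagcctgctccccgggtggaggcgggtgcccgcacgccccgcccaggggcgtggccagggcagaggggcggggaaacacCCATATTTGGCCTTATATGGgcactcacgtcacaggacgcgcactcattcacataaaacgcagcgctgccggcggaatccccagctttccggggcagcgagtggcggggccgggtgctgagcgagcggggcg
It also held 1 ETS core, and none of the other motifs.

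*Dusp4* (ENSRNOG00000011921), a nuclear enzyme close to *Dusp1*, was hardly seen. It had 43 UMIs in the whole control library and 25 in the LPS library, or 0.282 CPM (0.204 to 0.380) and 0.196 CPM (0.127 to 0.289). Their ratio was 0.696 (0.407 to 1.16). No cluster held 50 *Dusp4* UMIs. The macrophages of cluster 6 held 0 in either library, which allows up to 0.963 CPM in control and 1.21 CPM in LPS cells, and the LPS cells of cluster 4 held 0 against 2 in control.

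*Dusp6* (ENSRNOG00000023896) codes for the cytoplasmic phosphatase of ERK and is a common readout of ERK activity. In control cells its level was 50.1 CPM (46.0 to 54.4) in cluster 4, 50.4 CPM (38.1 to 65.4) in cluster 8, 44.9 CPM (38.8 to 51.8) in cluster 5 and 39.8 CPM (33.1 to 47.5) in cluster 6. The intervals of these 4 clusters overlapped. Cluster 2 followed with 28.3 CPM (25.0 to 31.9), then cluster 7 with 17.1 CPM (11.1 to 25.3), cluster 0 with 13.3 CPM (12.5 to 14.1), cluster 1 with 11.9 CPM (10.5 to 13.3) and cluster 3 with 6.92 CPM (5.12 to 9.15). The intervals of clusters 7, 0 and 1 overlapped. Among clusters 0 to 8, *Dusp6* was lowest in the cluster where *Dusp5* and *Dusp10* were highest, in both libraries.

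Between the libraries *Dusp6* differed in opposite directions by cluster. It was higher with LPS in the fibroblasts of cluster 0, with 17.9 CPM (16.9 to 18.9) and a ratio of 1.35 (1.25 to 1.46), and in those of cluster 1, with 16.4 CPM (14.7 to 18.3) and a ratio of 1.39 (1.18 to 1.63). It was lower in cluster 2, with 21.2 CPM (18.2 to 24.5) and a ratio of 0.749 (0.616 to 0.909), and in the macrophages of cluster 6, with 27.4 CPM (21.2 to 34.7) and a ratio of 0.687 (0.503 to 0.931). A higher ratio was seen for 9.71% of the genes tested in cluster 0 and for 8.74% in cluster 1. A lower one was seen for 21.9% in cluster 2 and for 33.3% in cluster 6, so falls of this size were common there. In cluster 1 the log2 ratio was 0.15 after thinning, against 0.47 as counted. Its thinned shares, 4.02% (3.01 to 5.23) and 4.67% (3.64 to 5.89), overlapped. Those of clusters 2 and 6 overlapped too, and those of cluster 0 did not. Relative to the median gene the ratio of cluster 2 was 0.813 (0.669 to 0.987), and that of cluster 6 was 0.850 (0.623 to 1.15), which included 1. In the endothelial clusters the intervals included 1. Cluster 4 had 52.9 CPM in LPS cells (ratio 1.06, 0.936 to 1.19) and cluster 5 had 42.6 CPM (0.948, 0.773 to 1.16). In cluster 3 the 49 and 48 UMIs gave a ratio of 1.27 (0.832 to 1.92). Cluster 7 had a ratio of 1.81 (1.09 to 3.06) from 25 and 47 UMIs, but its thinned shares were 9.62% (4.71 to 17.0) and 5.56% (2.43 to 10.7), the other way round, so no direction was read there.

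Of the enzymes that prefer JNK and p38, *Dusp8* (ENSRNOG00000029394) was rare and had the highest LPS to control ratio of the set in any cluster with at least 50 UMIs. It reached that minimum in cluster 0 only through the LPS library, where it was high. Its rank among the tested genes is therefore a description and no support for a difference. The fibroblasts of cluster 0 held 17 *Dusp8* UMIs in 6600 control cells and 91 in 7030 LPS cells. The levels were 0.188 CPM (0.109 to 0.301) and 1.23 CPM (0.993 to 1.51). Their ratio was 6.57 (3.89 to 11.8), and 0.727% of the 12247 tested genes had a higher one. No cell held more than 2 UMIs, so that no single cell set the level. After thinning 3 control cells (0.0455%, 0.00937 to 0.133) and 24 LPS cells (0.342%, 0.219 to 0.508) had a *Dusp8* UMI, against 0.258% and 1.28% without thinning. The control share lay at the limit of 3 cells.

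The fibroblasts with cycling markers in cluster 1 had 5 and 18 *Dusp8* UMIs, a ratio of 4.29 (1.54 to 14.8). In cluster 4 there were 15 and 23 UMIs (1.75, 0.876 to 3.61), and in cluster 2 there were 11 and 9 (0.912, 0.334 to 2.42). The macrophages of cluster 6 had 1 and 7 UMIs (8.77, 1.13 to 395). Lower bounds thus lay farthest above 1 in clusters 0 and 1. Clusters 3, 5, 6 and 8 held at most 7 UMIs in a library, and cluster 7, also named Fibroblast, held 0 in either, which allows up to 2.06 CPM in control and 1.97 CPM in LPS cells.

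*Dusp10* (ENSRNOG00000004003) went the other way in the same fibroblasts. Cluster 0 held 585 *Dusp10* UMIs in control and 134 in LPS cells, or 6.46 CPM (5.95 to 7.01) and 1.82 CPM (1.52 to 2.15). Their ratio was 0.281 (0.231 to 0.340), and 1.96% of the tested genes of the cluster had a lower one. Cluster 1 had 8.83 CPM (7.68 to 10.1) and 3.18 CPM (2.45 to 4.06), a ratio of 0.360 (0.268 to 0.478). Cells of cluster 0 with a *Dusp10* UMI after thinning were 1.98% (1.66 to 2.35) in control and 0.456% (0.312 to 0.643) with LPS, and 8.09% and 1.82% unthinned.

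Cluster 3 had the highest *Dusp10* level, 31.2 CPM (27.2 to 35.6) from 221 UMIs in control cells and 26.5 CPM (22.3 to 31.1) from 145 UMIs with LPS. The interval of the ratio, 0.847 (0.682 to 1.05), included 1. The thinned shares there were 8.25% (6.48 to 10.3) and 8.10% (6.42 to 10.0), and 22.6% and 14.2% unthinned, where the median cell had 7526 and 5269 UMIs. The interval of the ratio in cluster 3 did not meet those of clusters 0 and 1. The difference between the clusters was not tested.

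The fibroblast level lay above the share that cardiomyocyte markers reached there. *Dusp10* in cluster 0 stood at 20.7% of its cluster 3 level in control and at 6.87% in LPS cells, where the 7 cardiomyocyte markers together stood at 1.85% and 1.49% of theirs. The highest single marker stood at 2.26% and 1.86%. Clusters 2, 4, 5 and 6 held 40 UMIs or fewer per library, at 2.57 to 3.60 CPM in control and 1.32 to 2.82 CPM in LPS cells.

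The promoters of *Dusp8* and *Dusp10* are shown together as those of the members with the highest and the lowest ratio in the fibroblasts of cluster 0. The windows lie at chr1:206612392-206612691 (minus strand) and chr13:98145643-98145942 (plus strand). Neither held a match to AP-1, the cAMP or glucocorticoid response element, NF-kappaB or the CArG box, which 7.33%, 1.83%, 0.439%, 4.18% and 1.64% of all windows held, so neither has capitals.
*Dusp8*: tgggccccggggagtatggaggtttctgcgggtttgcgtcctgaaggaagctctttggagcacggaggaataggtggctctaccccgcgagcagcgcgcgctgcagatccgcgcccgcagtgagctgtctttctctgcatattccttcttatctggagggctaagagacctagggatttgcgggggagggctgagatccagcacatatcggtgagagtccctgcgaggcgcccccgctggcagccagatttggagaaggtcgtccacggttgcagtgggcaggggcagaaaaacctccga
*Dusp10*: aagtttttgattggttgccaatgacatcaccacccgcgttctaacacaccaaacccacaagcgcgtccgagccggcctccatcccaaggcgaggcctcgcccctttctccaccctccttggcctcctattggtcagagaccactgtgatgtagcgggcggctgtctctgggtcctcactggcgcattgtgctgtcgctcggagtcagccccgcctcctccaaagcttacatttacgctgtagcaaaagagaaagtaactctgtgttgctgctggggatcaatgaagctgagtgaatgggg
That of *Dusp8* held 1 ETS core and that of *Dusp10* none. The bases G and C made up 61% and 56.3% of these windows, 69.7% of that of *Dusp2* and 68% of that of *Dusp1*, against a median of 51.7% over all windows. A window was given for 8 of the 9 members.

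*Dusp16* (ENSRNOG00000006628), which acts on JNK, was rare throughout. It had 72 UMIs in all control and 87 in all LPS cells, at 0.472 CPM (0.369 to 0.594) and 0.682 CPM (0.546 to 0.841), a ratio of 1.45 (1.05 to 2.00). Cluster 0 held 36 and 42 of them (ratio 1.43, 0.895 to 2.3). Cluster 4 held 17 and 16, at 1.53 and 1.64 CPM, the highest levels among clusters 0 to 6. The intervals of its ratio included 1 in each of clusters 0 to 6.

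*Dusp14* (ENSRNOG00000030091), the small phosphatase of the set, was lower in the LPS library in every cluster with at least 50 UMIs. In control cells its level was highest in cluster 2, at 23.5 CPM (20.5 to 26.8), followed by clusters 0, 1 and 5 at 13.2 to 15.5 CPM, whose intervals overlapped, and by cluster 4 at 10.5 CPM (8.70 to 12.6). In cluster 0 it was 15.5 CPM (14.7 to 16.4) in control and 8.50 CPM (7.85 to 9.19) with LPS, for a ratio of 0.548 (0.498 to 0.602). In cluster 1 it was 13.8 and 8.89 CPM (0.643, 0.533 to 0.773), in cluster 2 it was 23.5 and 15.5 CPM (0.659, 0.526 to 0.822), and in cluster 4 it was 10.5 and 6.68 CPM (0.635, 0.461 to 0.867). Cluster 5 gave the lowest value, with 56 and 18 UMIs, 13.2 CPM (9.95 to 17.1) and 3.96 CPM (2.34 to 6.25), and a ratio of 0.300 (0.166 to 0.518). Lower ratios were seen for 11.4%, 11.7%, 12.8% and 10.9% of the tested genes of clusters 0, 1, 2 and 4. In clusters 3 and 5 the shares were 6.13% and 0.818%. In both, *Dusp14* passed the minimum only through the control library, with 64 control and 34 LPS UMIs in cluster 3. Its ranks there are a description and no support for a difference. Only 1 near-copy was listed, *Dusp14l1*, with 1 UMI in control and 0 in LPS cells.

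The intervals of clusters 0, 1, 2, 4 and 5 lay below 1, and they did so relative to the median gene as well, with 0.599 (0.545 to 0.659) in cluster 0 and 0.715 (0.571 to 0.893) in cluster 2. In cluster 3 the ratio was 0.686 (0.439 to 1.06) from 64 and 34 UMIs, and in cluster 6 it was 0.399 (0.144 to 0.966) from 22 and 7 UMIs, or 0.493 (0.178 to 1.20) relative to the median gene. The thinned shares of cluster 0 were 4.44% (3.96 to 4.96) and 2.35% (2.01 to 2.73), and 18.2% and 8.41% without thinning. Those of cluster 1 were 3.78% (2.81 to 4.97) and 2.58% (1.82 to 3.54), with intervals that overlapped. In cluster 3 they were 2.03% and 2.05%, with no difference detectable at this depth.

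Fibroblast markers were also present in the other clusters. In cluster 4 the 8 markers together stood at 28.1% of their cluster 0 level in control and 22.1% with LPS, and *Dusp14* stood at 67.7% and 78.5% of its own. The cluster 0 level of *Dusp14* times the markers' share came to 4.36 and 1.88 CPM, where 10.5 and 6.68 CPM were measured, so that this product differed between the libraries by a large part of the measured difference. In cluster 3 the product was 5.08 and 2.73 CPM beside 9.04 and 6.20 CPM, and in cluster 2 it was 7.38 and 3.35 CPM beside 23.5 and 15.5 CPM. In cluster 5 it was 4.09 and 1.75 CPM beside 13.2 and 3.96 CPM, a smaller part of the difference. The part of fibroblast RNA in the ratios of clusters 2, 3, 4 and 5 was not tested. The lower *Dusp14* is read for the fibroblasts of clusters 0 and 1, in cluster 1 by its ratio only.

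**Figure D4:**
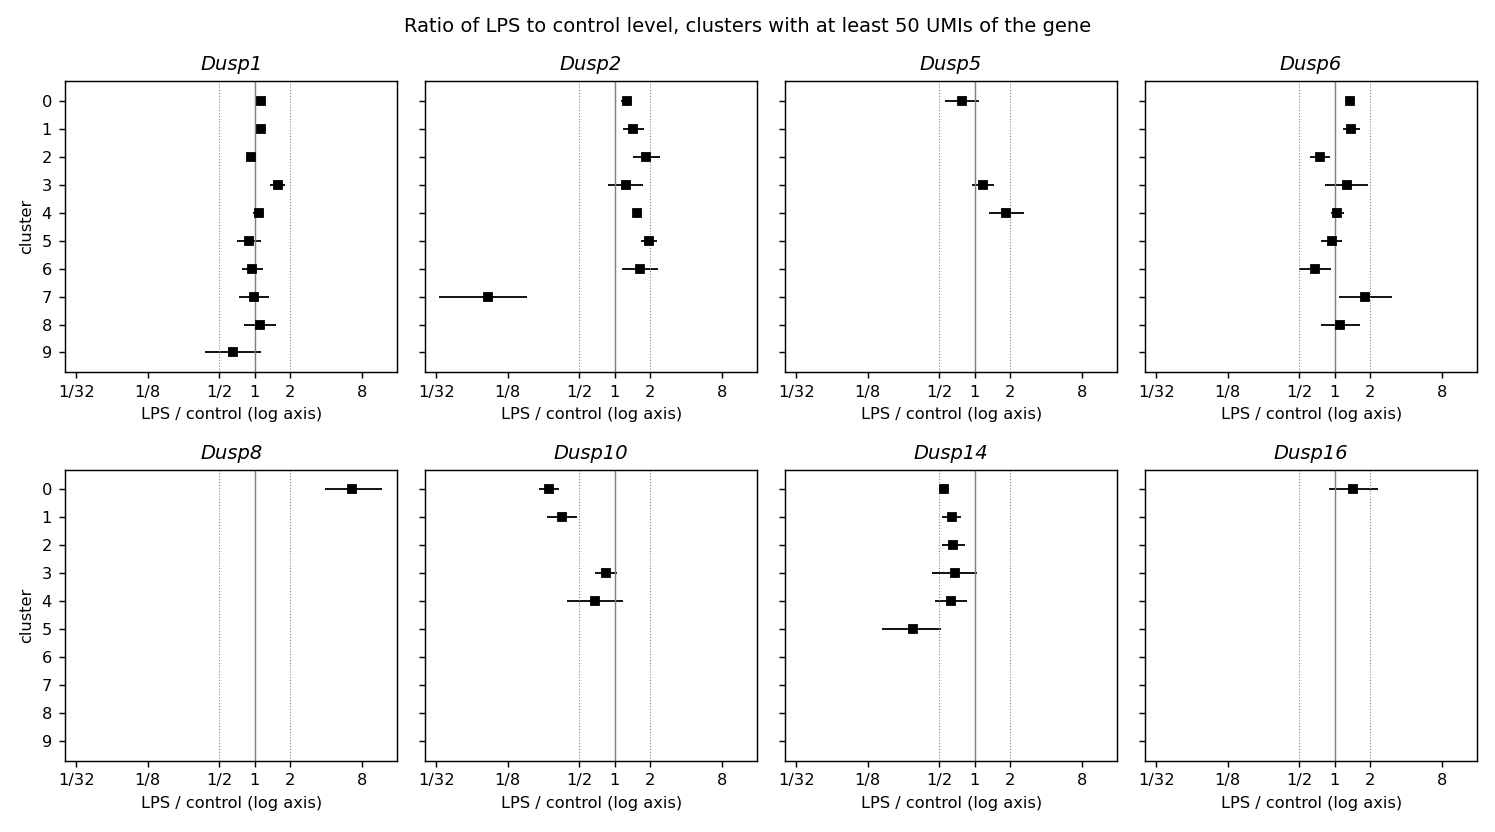
LPS to control ratio of level (log axis) for each phosphatase gene in each cluster with at least 50 UMIs of the gene over both libraries, with exact conditional 95% intervals, the line at 1 and dotted lines at 2-fold. *Dusp8* in cluster 0 stood at 6.57, *Dusp10* in clusters 0 and 1 at 0.281 and 0.360, and every point of *Dusp14* below 1. The points of *Dusp14* in clusters 3 and 5 passed the minimum only through the control library. *Dusp2* in cluster 7 stood at 0.0851, and at 0.344 without 1 control cell, from 19 and 7 UMIs.

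Counted over the set, few members passed 2-fold. With a minimum of 50 UMIs over both libraries, 8 of the 9 members were counted in cluster 0, all but *Dusp4*. The minimum could be reached through either library, and *Dusp8*, with 17 and 91 UMIs, reached it through the LPS library. Of these 8, *Dusp8* was at least 2-fold higher and *Dusp10* at least 2-fold lower, where 3.44% and 9.10% of all genes tested in the cluster were higher and lower. In cluster 1, 5 members were counted, 0 higher and 1 lower (*Dusp10*), with 3.23% and 5.09% of all genes. In cluster 5, 4 were counted, 0 higher and 1 lower (*Dusp14*), with 4.24% and 4.56% of all genes. There *Dusp14* reached the minimum through its 56 control UMIs, beside 18 with LPS. In cluster 7, 3 were counted, 0 higher and 1 lower (*Dusp2*), with 4.70% and 3.45% of all genes. There *Dusp2* reached the minimum only through the 1 control cell described above. With so few members counted, 1 gene past 2-fold is not a result about the set.

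No member passed 2-fold in clusters 2, 3, 4, 6, 8 and 9. The shares of all genes at least 2-fold higher and lower were 2.86% and 4.28% in cluster 2, where 4 members were counted, and 1.70% and 1.69% in cluster 3, where 6 were. They were 2.65% and 4.08% in cluster 4 with 6 members, 4.82% and 12.3% in cluster 6 with 3, 2.48% and 1.67% in cluster 8 with 2, and 2.69% and 2.81% in cluster 9 with 1. Over all cells, where all 9 were counted, *Dusp8* was higher and *Dusp10* lower by at least 2-fold, with 3.37% and 8.13% of all genes.

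Over all cells the ratios of the others lay between these. *Dusp2* had 26.5 and 41.5 CPM (ratio 1.56, 1.5 to 1.63), *Dusp6* 18.1 and 21.7 CPM (1.20, 1.14 to 1.27), *Dusp5* 2.74 and 3.01 CPM (1.10, 0.954 to 1.27) and *Dusp1* 57.4 and 63.6 CPM (1.11, 1.07 to 1.14). *Dusp14* had 14.7 and 8.44 CPM (0.574, 0.534 to 0.618), *Dusp10* had 7.38 and 3.27 CPM (0.443, 0.395 to 0.496) and *Dusp8* had 0.354 and 1.27 CPM (3.59, 2.62 to 4.98). These sums mix cell types, and fibroblasts of cluster 0 made up 57.2% of cells in control and 55.4% with LPS.

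**Figure D5:**
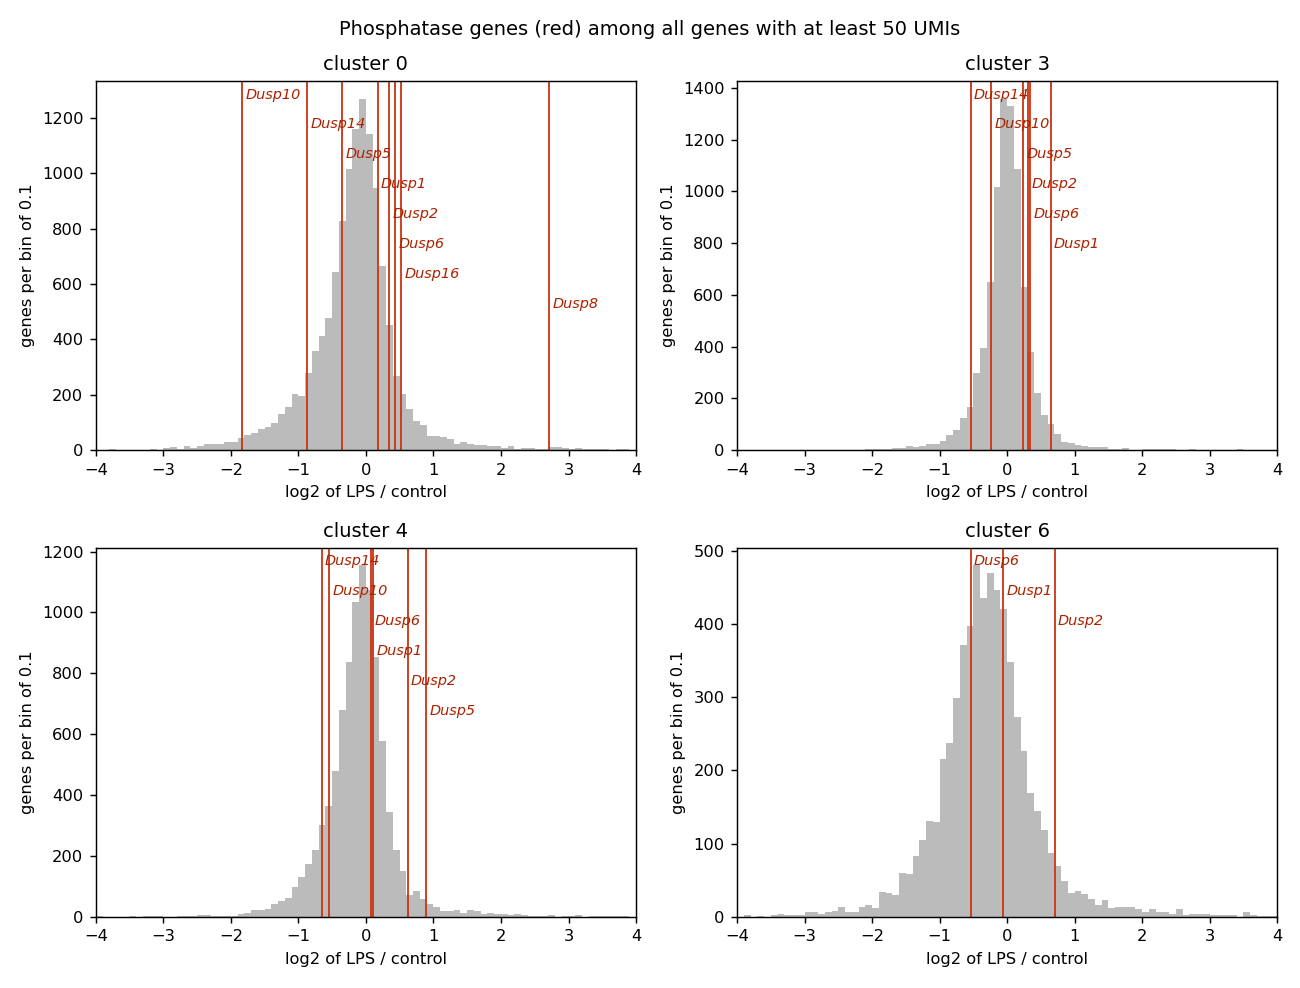
The phosphatase genes (red lines) among all genes with at least 50 UMIs, by log2 of the LPS to control ratio, in clusters 0, 3, 4 and 6; grey bars count genes per bin of 0.1. In cluster 0 *Dusp8* (2.72) and *Dusp10* (-1.83) stood in the tails, and in cluster 6 the whole distribution was centred below 0, at a median of -0.31.

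The rest of the pathway was counted from lists of MAP kinases, the kinases above and below them, their other inhibitors and the transcription factors they drive. In cluster 0, 6 of 90 genes were at least 2-fold higher and 9 lower. In cluster 3 the counts were 3 and 1 of 60, in cluster 4 they were 5 and 5 of 68, and in cluster 6 they were 5 and 11 of 49, beside the shares of all genes given above. In clusters 1, 2 and 5 they were 8 and 6 of 71, 6 and 2 of 62, and 4 and 2 of 54. The transcription factors and early genes held most of the genes that were higher. In that list cluster 0 had 5 higher and 1 lower of 17 counted and a median log2 ratio of 0.40, against -0.13 over all genes of the cluster.

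Among the kinases, *Map3k8*, whose product Tpl2 activates the ERK pathway below TLR4, was higher in clusters 0, 3 and 4, at 7.83 and 22.5 CPM (ratio 2.87), 6.92 and 16.2 CPM (2.35) and 5.66 and 15.5 CPM (2.74). In cluster 3 *Map3k8* had 49 control and 89 LPS UMIs, so that value passed the minimum only through the LPS library. *Map2k6*, which activates p38, was lower in cluster 0, at 13.0 and 1.79 CPM (0.138), and in cluster 4, at 33.3 and 6.47 CPM (0.194). The other kinases past 2-fold in clusters 0, 3, 4 and 6 were lower. They were *Mapk12* (0.452) and *Map3k5* (0.472) in cluster 0, *Rps6ka5* (0.403) and *Mknk2* (0.499) in cluster 4, and *Mapk14* (0.235), *Mapk9* (0.437), *Mknk2* (0.340) and *Rps6ka4* (0.450) in cluster 6. *Mapk14*, which codes for p38 alpha, had 71.9 CPM in control and 16.9 CPM in LPS macrophages. The values of *Mapk12* in cluster 0, *Rps6ka5* in cluster 4 and *Mapk9* and *Mapk14* in cluster 6 passed the minimum only through the control library. The ratios of pathway genes given here and below are not scaled to the median gene, which stood at 0.808 in cluster 6. Relative to it, *Mapk9*, *Rps6ka4*, *Dusp3*, *Dusp22*, *Ptpn7* and *Fos* were less than 2-fold lower in that cluster. The share of all its genes at least 2-fold lower was then 6.53%, against 12.3% unscaled.

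Among other phosphatases of the family and other inhibitors, *Spry1* (0.452), *Dusp26* (0.181), *Dusp28* (0.470) and *Ssh2* (0.429) were lower in cluster 0, *Dusp28* (0.335) in cluster 4, and *Dusp3* (0.454), *Dusp22* (0.430) and *Ptpn7* (0.481) in cluster 6. The values of *Dusp26* and *Ssh2* in cluster 0, *Dusp28* in cluster 4 and *Dusp22* in cluster 6 passed the minimum only through the control library. No other dual-specificity phosphatase was 2-fold higher in clusters 0, 3, 4 or 6. Of the scaffolds, *Ksr1* was lower in clusters 0 (0.470) and 6 (0.230), and *Spag9* was higher in cluster 6 (2.08). *Ksr1* in cluster 6 had 49 control and 9 LPS UMIs.

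The transcription factors and early genes went both ways. *Fosl1* and *Atf3* were higher in cluster 0 (7.02 and 4.54), cluster 4 (2.38 and 2.96) and cluster 6 (5.61 and 4.83). *Fosl1* had 24 control and 50 LPS UMIs in cluster 4 and 23 and 103 in cluster 6, where *Atf3* had 48 and 185. These 3 values passed the minimum of 50 only through the LPS library. *Ier3*, an early response gene, was higher in clusters 0 (3.29), 3 (2.62), 4 (2.08) and 6 (3.52), *Myc* in clusters 0 (2.33) and 3 (2.81), *Junb* in clusters 4 (2.2) and 6 (2.76), and *Etv5* in cluster 0 (2.49). *Fos* was lower in all of them, with 51.7 and 15.1 CPM in cluster 0 (0.292) and ratios of 0.386, 0.433 and 0.467 in clusters 3, 4 and 6. In cluster 6 *Egr2* (0.236) and *Etv1* (0.262) were lower too. These values, and those of *Fos* in clusters 3 and 6, passed the minimum of 50 only through the control library. None of *Dusp1*, *Dusp2* and *Dusp6* was 2-fold lower in clusters 0, 3, 4 or 6, nor was *Dusp5* in clusters 0, 3 or 4. In cluster 6 *Dusp5* had 16 and 10 UMIs and was not counted.

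The patterns of the members over cell types were also set beside those of other genes. Across 9 clusters in both libraries (18 points that share 2 libraries), the genes most like each member by Pearson's r of log2(CPM + 1) were named among 11303 genes. For *Dusp2* they were *Gimap9* (r = 0.958), *LOC684871* (0.954) and *Zdhhc18* (0.948), and for *Dusp5* they were *Hgs* (0.940), *Atg4d* (0.925) and *Ucp2* (0.920). For *Dusp10* they were *Ptgfr* (0.945), *Myh7b* (0.934) and *Lrba* (0.932), and for *Dusp14* *Map7d2* (0.921), *Fam69b* (0.920) and *Tgfb1i1* (0.913). *Dusp6* was nearest to *Lamtor5* (0.892), *Cd2ap* (0.876) and *Mettl26* (0.873). The likeness was weaker for *Dusp1*, with *Reep5* (0.852), *Ilk* (0.835) and *Mrpl52* (0.765), and for *Dusp8*, with *RGD1305014* (0.794), *Noct* (0.780) and *AABR07058884.2* (0.777). *Dusp4* and *Dusp16*, with under 200 UMIs, were not compared.

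The values above were picked as the highest of 11303 genes, so the few pairs of members cannot be compared with them. Among the members themselves the highest r was 0.531, between *Dusp5* and *Dusp10*, which shared cluster 3 as their highest cluster. The lowest was -0.71, between *Dusp6* and *Dusp10*. *Dusp2* and *Dusp6*, both high in cluster 4, had an r of 0.467.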

How the data were processed

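Single-cell data were used, with 1 control and 1 LPS library made by the 10X Genomics 3′ v2 procedure. The authors deposited raw UMI counts per gene and cell for cells that had passed their filters, with a table of clusters. The submitters' processing notes name Cell Ranger 2.2.0 and Seurat 2.3.4, and the authors clustered the cells on shared components of both libraries. The genome build and annotation are not given in the sources used here. Total counts were 152624585 UMIs in 11531 control cells (3682 to 70604 per cell) and 127580475 UMIs in 12689 LPS cells (2821 to 46594).

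From these counts, UMIs were summed for each gene, cluster and library and divided by the total of the cluster (CPM). Intervals at 95% are exact Poisson for levels, exact conditional binomial for ratios and Clopper-Pearson for shares. PCR-duplicate reads are already merged by UMI, and the intervals cover counting error only. Genes with at least 50 UMIs over both libraries counted as tested, and 2-fold was the threshold. A count of 0 was read as up to 3 UMIs. Shares of cells were taken after each cell was thinned to 3000 UMIs, which left out 75 LPS cells. No doublet caller was run. As an alternative the 8% of cells with the most UMIs in each library were left out.

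All 9 members are named. Pathway genes are named where they passed 2-fold in clusters 0, 3, 4 and 6, the largest ratios first and up to 3 per list and cluster. *Myc*, *Etv5*, *Junb* and *Ier3* beyond that, and *Etv1* and *Fos* in cluster 6, were named after their values were seen, to complete the counts. The 3 genes most like each member over the clusters are also named. The members and lists were chosen with earlier results of these data known. *Map2k3*, whose symbol is on more than 1 line of the gene list, was not used, and *Pecam1*, *Ttn*, *Hba-a1* and *Ier2* were not analysed here. Promoter windows came from RefSeq (GRCr8). The scripts were tested on simulated data and used Python 3.11.15, numpy 2.4.6, scipy 1.17.1, pandas 2.3.3 and matplotlib 3.10.9. Other scalings, minimums, folds and thinning depths were tried, and leaving out the control cell of cluster 7 with the most *Dusp2* was added after seeing the data.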

Additional observations from a re-analysis of the deposited data

Results flagged for a closer look

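The LPS to control ratio of *Dusp2* pointed in different directions in different clusters, with 95% counting intervals on opposite sides of 1. It was 1.53 in cluster 4 and 1.95 in cluster 5, the endothelial clusters, and 1.26, 1.44, 1.85 and 1.63 in clusters 0, 1, 2 and 6. It was 0.0851 in the fibroblasts of cluster 7. With 1 library per condition the difference between clusters was not tested. A single control cell held 60 of the 79 control UMIs of cluster 7, and without it the ratio was 0.344 (0.122 to 0.856). Endothelial markers were lower with LPS in cluster 7 as well, with or without the cell of each library with the most *Dusp2*. The levels in clusters 0, 1, 2 and 6 lay within the range of single endothelial markers there.

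*Dusp6* likewise had intervals on opposite sides of 1. Its ratio was 1.35, 1.39 and 1.81 in clusters 0, 1 and 7, all named Fibroblast, and 0.749 in cluster 2 and 0.687 in the macrophages of cluster 6. The difference between clusters was not tested. Lower ratios were seen for 21.9% of the tested genes of cluster 2 and 33.3% of those of cluster 6. Relative to the median gene the interval of cluster 6 included 1 (0.850, 0.623 to 1.15), and that of cluster 2 did not (0.813, 0.669 to 0.987). The value of cluster 7 rested on 25 control and 47 LPS UMIs and turned after thinning. The log2 ratio of cluster 1 was 0.15 after thinning, against 0.47 as counted.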

How the results depend on the processing

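No paired analysis was possible because there was 1 library per condition. Of 591 alternative values of the members' log2 ratios by cluster, 564 stayed within the counting interval, 25 moved beyond it, and 2 reversed, which means that the sign turned where the interval of the ratio lay on 1 side of 1. The sign also turned in 8 of the 25 and 39 of the 564, all from ratios whose interval included 1. The reversed values were *Dusp2* in cluster 7 with clusters of one name joined (0.26, against -3.55) and *Dusp6* in cluster 7 after thinning (-0.33, against 0.85). The *Dusp2* value of cluster 7 was -1.75 without the cell of each library with the most, -1.22 without the 8% of cells with the most UMIs and -2.17 after thinning. Over all cells, scaling by the median ratio gave log2 ratios of 0.28 for *Dusp1*, 0.78 for *Dusp2*, 0.40 for *Dusp6* and -0.67 for *Dusp14*. The mean of the cells' own CPM gave 0.16 for *Dusp6* and -0.90 for *Dusp10*, and weighting the clusters by their share of the control UMIs gave 0.57 for *Dusp2*.

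Counts of members past the threshold were small and moved with the setting. After thinning there were 0 higher in cluster 0 (3.46% of all genes) and 1 higher and 0 lower in cluster 1 (3.19% and 2.87%). In cluster 5, 1 was higher and 0 lower (4.59% and 3.23%). There were 0 lower in cluster 7 (2.15%) and 2 higher over all cells (3.11%). These counts of 0 came from too few UMIs. *Dusp8* in cluster 0, *Dusp10* in cluster 1, *Dusp14* in cluster 5 and every member in cluster 7 then had fewer than 50. At 1.5-fold 2 were lower in cluster 0 and 2 in cluster 1, 1 was higher and 1 lower in cluster 2, 1 was higher in cluster 3, 2 were higher and 1 lower in cluster 4, and 1 was higher in each of clusters 5, 6 and 7. Over all cells, 2 were then higher and 2 lower (6.57% and 18.5% of all genes). In cluster 9 the 1 member counted, *Dusp1*, was lower (8.90%). At this fold 19.7%, 13.3%, 13.6% and 13.2% of all genes were lower in clusters 0, 1, 2 and 4, and 4.38% to 10.5% were higher in clusters 2 to 7. With at least 20 UMIs, 1 was higher in cluster 1 (3.39% of all genes) and 1 lower in cluster 6 (16.2%). With 1 UMI in each library as the minimum, 1 was higher in cluster 1 (4.94% of all genes), 1 lower in cluster 2 (11.3%) and 2 higher in cluster 3 (4.65%). Those of cluster 3 were *Dusp8*, with 2 control and 7 LPS UMIs, and *Dusp16*, with 2 and 4. In cluster 6, 1 was higher and 1 lower (6.34% and 19.4%). Scaled by the median ratio, 1 was higher in each of clusters 2, 5 and 6 (3.33%, 4.65% and 7.31% of all genes). Without the 8% of cells with the most UMIs, 1 was higher in cluster 2 (2.78% of all genes) and 1 in cluster 4 (2.69%). In cluster 7, 0 were then lower (2.94%), as *Dusp2* was no longer counted. By the mean of the cells' own CPM, 0 were lower over all cells (8.06% of all genes). At 1.5-fold the pathway lists had 15 higher and 22 lower of 90 in cluster 0 (6.92% and 19.7% of all genes), 8 and 3 of 60 in cluster 3 (4.38% and 5.40%), 8 and 15 of 68 in cluster 4 (5.64% and 13.2%), and 8 and 17 of 49 in cluster 6 (8.80% and 30.8%).

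Shares of cells moved with the thinning depth in 220 of 396 values, and in 9 of 14 repeats with another pseudocount or Spearman's rho, at most 1 of a member's 3 most alike genes was named again. *Dusp4* had under 50 UMIs in every cluster, and *Dusp8* and *Dusp16* in every cluster but cluster 0, which limits what their ratios show. Ratios rest on 1 library each, so that neither handling nor animals can be told apart from LPS. The cause of the changes between settings was not tested.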
